A study of Danio rerio with 6 samples.

Results

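The miRNAs described here are those of the names miR-140, miR-199 and miR-214, which are used as marks of cartilage and of the mesenchyme of the pharyngeal arches and fins. They were taken by number from the deposited table of small RNA reads, any letter or arm suffix allowed, and gave 5 of its 230 mature miRNAs: dre-miR-140-3p, dre-miR-140-5p, miR-199-3p, miR-199-5p and miR-214. The libraries came from whole zebrafish embryos of the AB strain (wild type). Every embryo had received, at the 1-cell stage, 1.5 ng of a morpholino, which is an antisense oligonucleotide. MO-Tbx5a blocks translation of tbx5a at its start, and MO-Ct is the control. At 48 h post fertilization (hpf) each morpholino had 1 library, and at 24 hpf each had 2, every library from a pool of 50 embryos. A pool of whole embryos cannot tell fewer cells of a type from less RNA per cell, and the libraries do not measure Tbx5a protein, so the depth of the knockdown was not checked in them. Both libraries of the later stage are named as labelled. Nearly every change listed for that stage in the study's supplement runs opposite to the labelled columns. The study also reports that quantitative RT-PCR upheld nearly all the changes it measured that way. A direction between these libraries, and any comparison of the morpholinos that uses them, therefore rests on labels that the study's own list contradicts.

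The transcription factor Tbx5a is needed in zebrafish for the pectoral fin buds and for looping of the heart. A mature miRNA is cut from one arm of a hairpin precursor, the 5p or the 3p arm, and guides the silencing of mRNAs that match its seed. miR-140 is enriched in cartilage of zebrafish and mouse, where its gene lies within the gene of the ubiquitin ligase Wwp2, and in zebrafish it tempers Pdgf receptor signalling in the neural crest cells that form the palate. In mouse, miR-199 and miR-214 are cut from 1 long transcript that runs antisense to the dynamin gene Dnm3 and is made in mesenchyme around the skeleton. In zebrafish, miR-214 tunes the response of muscle precursors to Hedgehog signals through Sufu. In the RefSeq annotation of the GRCz12tu assembly, the hairpin mir-140 overlapped wwp2 on chromosome 25. The hairpins mir-199-1 and mir-214 both overlapped dnm3a on chromosome 20, where each was among the nearest genes of the other. The other copies overlapped dnm1a on chromosome 5 (mir-199-2) and dnm2a on chromosome 3 (mir-199-3).

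The deposited values are the authors' reads per miRNA divided by 1 size factor per library, called normalized reads here. From the steps between low values, 1 read was worth 0.466 to 1.87 normalized reads, and the libraries held an estimated 1699876 to 3148888 reads over all mature miRNAs. The study's supplement lists fewer miRNA reads than this estimate for every library, and the libraries at 48 hpf in the opposite order of depth. The reason was not tested. The 5 miRNAs rested on 60 to 9132 estimated reads in single libraries. The early embryonic miR-430 family took 5.15% and 15.2% of normalized reads in the libraries at 48 hpf (MO-Tbx5a and MO-Ct as labelled) and 46.0% to 58.7% at 24 hpf. miRNAs of muscle, nervous system, epidermis, red blood cells and liver were all detected, as a whole embryo should give, with none at 0 and liver miR-122 the lowest, at no more than 37.2 normalized reads in any library. miR-199-3p has 2 precursors in the table and miR-199-5p has 3. Their values differed by at most 0.826% and were averaged.

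On the deposited scale the members split into a trio that rose between the stages and a pair whose difference did not pass the test. miR-199-3p, miR-199-5p and miR-214 were each about 3-fold more abundant at 48 hpf than at 24 hpf on that scale. They were higher at 48 hpf with either morpholino, whereas both arms of miR-140 differed little on the deposited scale. With each of 3 other scalings of the libraries miR-140-3p was called higher at 48 hpf, as was miR-140-5p with library totals. miR-140-3p was the most abundant of the 5 at 24 hpf, and miR-199-3p at 48 hpf. None of the 5 passed the test of MO-Tbx5a against MO-Ct at 24 hpf without a batch term, where 7.62% of all miRNAs did. With a batch term miR-199-3p passed, among 39 of 210 miRNAs that did. The methods do not say whether same-numbered batches belong together.

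The trio was compared between stages with limma, in 1 fit of the log2 of normalized reads plus 2 over all 6 libraries with stage and morpholino as terms. This log2 scale understates changes of low miRNAs. A miRNA entered with 10 or more normalized reads in 2 or more of the libraries and was called where the p adjusted by Benjamini-Hochberg fell under 0.05. Of the 5 members 3 were called, all higher at 48 hpf. Among all miRNAs tested 112 were called, or 52.3%, with 40 of them (18.7%) higher and 72 (33.6%) lower at 48 hpf. The stages did not overlap for 4 of the 5 members, all higher at 48 hpf, where 65.0% of all miRNAs did not overlap and 25.2% lay higher without overlap.

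For miR-199-3p the normalized reads at 48 hpf came to 4998 under the label MO-Tbx5a, against 3631 under the label MO-Ct. Batches 1 and 2 at 24 hpf gave 1123 and 1408 after MO-Tbx5a, against 1471 and 1708 after MO-Ct. Each library at 48 hpf lay above every library at 24 hpf. The mean at 48 hpf was 3.02 times that at 24 hpf, with a log2 difference of 1.59 (standard error 0.24, limma adjusted p = 0.00224).

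For miR-199-5p, the other arm, 48 hpf gave 1057 normalized reads under the label MO-Tbx5a, against 980.2 under the label MO-Ct. Its batches at 24 hpf gave 302 and 356 after MO-Tbx5a, against 384 and 419.9 after MO-Ct. Again the stages did not overlap. The ratio of the stage means was 2.79 and the log2 difference 1.48 (standard error 0.20, adjusted p = 0.00162 from limma).

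miR-214 was the least abundant of the trio. At 48 hpf it reached 548 normalized reads under the label MO-Tbx5a, against 465 under the label MO-Ct. At 24 hpf the batches gave 112 and 117 after MO-Tbx5a, against 166 and 168 after MO-Ct, all under those of the later stage. miR-214 had the largest stage difference of the 5, with a ratio of means of 3.59 and a log2 difference of 1.85 (standard error 0.25, adjusted p = 0.00156 from limma). Over all miRNAs tested, 21 had a larger rise, and falls were not counted here.

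**Figure D1:**
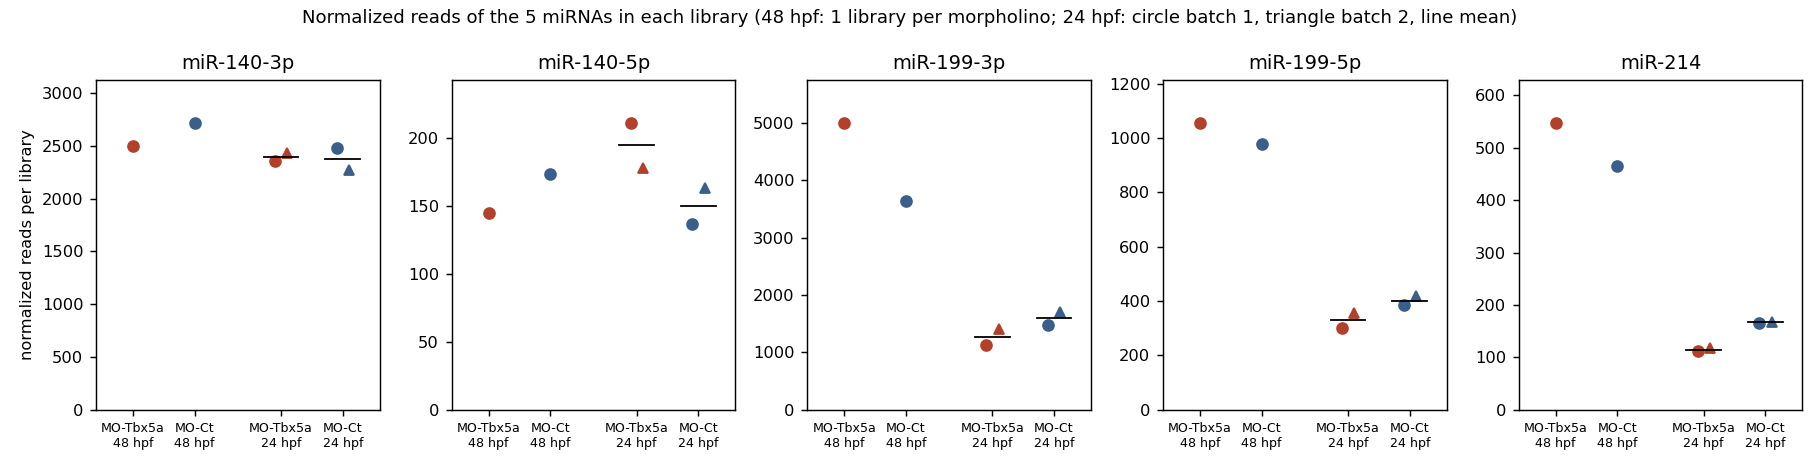
Normalized reads of each of the 5 miRNAs (vertical axis, from 0) in each of the 6 libraries, by morpholino at 48 hpf (1 library each) and at 24 hpf (circle, batch 1; triangle, batch 2; line, their mean). Both libraries at 48 hpf lie above all 4 at 24 hpf for miR-199-3p, miR-199-5p and miR-214, while miR-140-5p spans 137 to 211 with the stages overlapping.

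The trio was called at both morpholinos separately. Within MO-Tbx5a as labelled, 1 library against 2, the log2 stage differences were 1.99 for miR-199-3p, 1.68 for miR-199-5p and 2.24 for miR-214. Within MO-Ct as labelled they were 1.19, 1.28 and 1.47 in the same order. The gaps between the morpholinos in these differences rest on the names at 48 hpf. The adjusted p from limma lay between 4.56e-06 and 0.00479 over these 6 values, with the lone library at 48 hpf assumed to vary like those at 24 hpf. An exact permutation test of 2 libraries against 4 gave p = 0.133 for each of the trio, the smallest p this design allows. Any miRNA whose stages do not overlap gets this p, and miR-140-3p had it too. The test therefore does not set the trio apart from miR-140-3p.

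For dre-miR-140-3p, the abundant arm of its hairpin, 48 hpf gave 2499 normalized reads under the label MO-Tbx5a, against 2719 under the label MO-Ct. The batches at 24 hpf gave 2360.0 and 2434 after MO-Tbx5a, against 2484 and 2270.4 after MO-Ct. The later libraries were the highest, by a small margin: the ratio of means was 1.09 and the log2 difference 0.13 (standard error 0.16, 95% interval -0.26 to 0.51, adjusted p = 0.551 from limma). It was called higher at 48 hpf with each of 3 other scalings of the libraries.

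For dre-miR-140-5p, the minor arm, 48 hpf gave 145.05 normalized reads under the label MO-Tbx5a, against 173 under the label MO-Ct. The batches at 24 hpf gave 211 and 178 after MO-Tbx5a, against 137 and 164 after MO-Ct. The stages overlapped, with a log2 difference of -0.10 (standard error 0.26, 95% interval -0.71 to 0.51, adjusted p = 0.759 from limma). With library totals as the scaling it was called higher at 48 hpf.

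**Figure D2:**
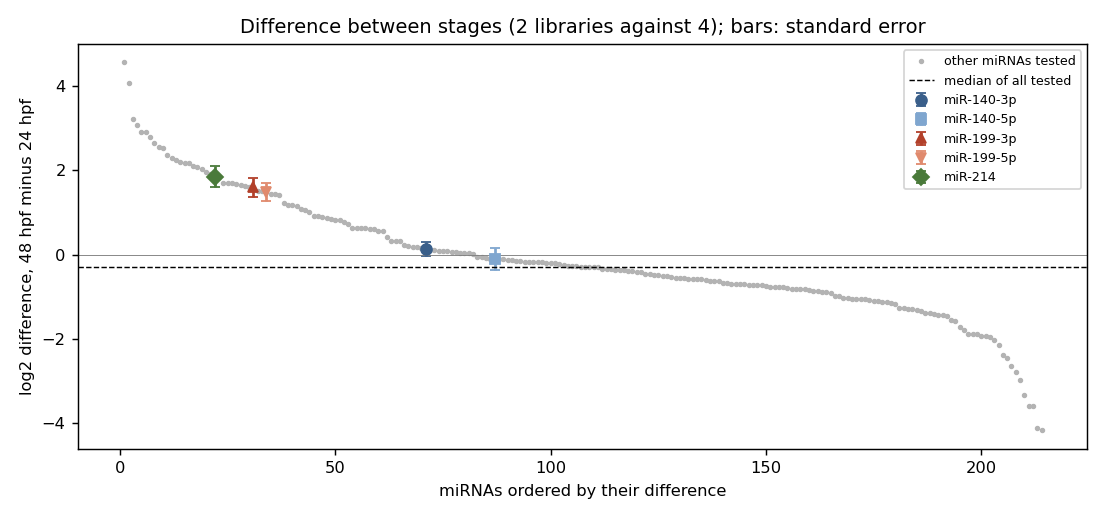
Log2 difference between 48 and 24 hpf (vertical axis) of all miRNAs tested, ordered from high to low (horizontal axis), with standard errors for the 5 members and the median of all as a dashed line. The trio lies near the top, with 33 miRNAs above miR-199-5p, the lowest of the trio, and both arms of miR-140 lie between the trio and the median of -0.29.

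The share of miR-430 differed widely between the stages, and the scale between them was set in 4 ways. With the deposited size factors the median miRNA differed by -0.29 on the log2 scale between 48 and 24 hpf, with library totals by 1.11, with totals without miR-430 by 0.21 and with median-ratio size factors by 0.03. The 40 miRNAs called higher and 72 called lower at 48 hpf became 154 and 12 with library totals, 63 and 33 with totals without miR-430 and 53 and 50 with median-ratio size factors. A scaling moves all miRNAs of a library alike, so distances from the median miRNA are fixed by construction apart from the pseudocount and the filter. miR-199-3p lay 1.87 to 1.88 above it, miR-199-5p 1.76 to 1.77 and miR-214 2.12 to 2.14, and all 3 were called under every one of the 4 scalings. The size of their rise depended on the scaling. In that order the log2 differences were 1.59, 1.48 and 1.85 on the deposited scale and 2.99, 2.88 and 3.24 with library totals. miR-140-3p lay 0.40 to 0.42 above the median and miR-140-5p 0.17 to 0.19. Whether an arm of miR-140 was called higher at 48 hpf depended on the scaling.

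**Figure D3:**
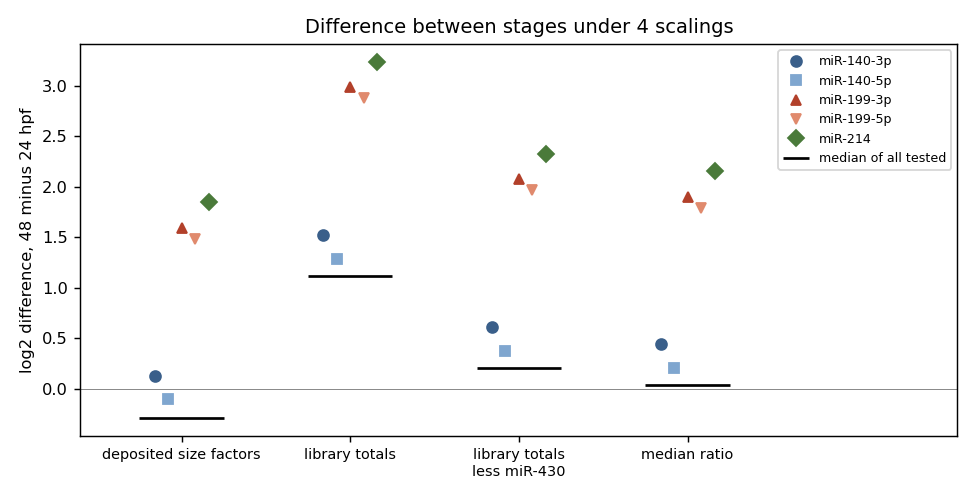
Log2 difference between 48 and 24 hpf of the 5 miRNAs (vertical axis) under 4 scalings of the libraries (horizontal axis), with the median of all tested miRNAs as a bar. The bar moves between -0.29 and 1.11, and the 5 miRNAs move with it, as a scaling moves all miRNAs alike.

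Ratios within a library do not depend on the scaling. The ratio of miR-199-3p to miR-140-3p at 48 hpf was 2.00 under the label MO-Tbx5a, against 1.34 under the label MO-Ct. At 24 hpf the batches gave 0.476 and 0.579 after MO-Tbx5a, against 0.592 and 0.752 after MO-Ct. miR-199-3p therefore outnumbered miR-140-3p at 48 hpf and was outnumbered by it in all 4 libraries at 24 hpf. The ratio of miR-214 to miR-140-3p was 0.219 and 0.171 at 48 hpf (MO-Tbx5a and MO-Ct as labelled) and between 0.0476 and 0.0741 at 24 hpf, also without overlap. Both gave p = 0.133 in an exact permutation test of 2 libraries against 4, the smallest possible.

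The hairpin neighbours miR-214 and miR-199 differed less from each other. The ratio of miR-214 to miR-199-3p was 0.110 and 0.128 at 48 hpf, in the same order, and lay between 0.0833 and 0.113 at 24 hpf. The stages overlapped, with an exact permutation p of 0.267. Against miR-199-5p, miR-214 was at 0.518 and 0.475 at 48 hpf and at 0.330 to 0.433 at 24 hpf, without overlap. miR-199 has other genomic copies, whose reads cannot be told from those of the copy beside mir-214.

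The arms of miR-140 and of miR-199 were unequal, with 3p the larger one in each of the 6 libraries. Adapter ligation favours some ends over others, so these are shares of reads. Of the estimated reads on both arms of miR-140, the 5p arm at 48 hpf took 5.49% under the label MO-Tbx5a (95% Wilson interval 4.88 to 6.16), against 5.997% under the label MO-Ct (5.43 to 6.62). The 24 hpf batches gave 8.22% (6.89 to 9.80) and 6.82% (5.96 to 7.80) after MO-Tbx5a, against 5.23% (4.33 to 6.30) and 6.72% (5.83 to 7.74) after MO-Ct. The highest share was from MO-Tbx5a batch 1 and the lowest from MO-Ct batch 1, both at 24 hpf. Whether these libraries share more than a number is not stated. The intervals cover counting error only. miR-140-3p thus outnumbered miR-140-5p by 11.2-fold to 18.1-fold.

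For miR-199 the 5p arm at 48 hpf took 17.5% under the label MO-Tbx5a (95% Wilson interval 16.8 to 18.2), against 21.3% under the label MO-Ct (20.5 to 22.1). The batches at 24 hpf gave 21.2% and 20.2% after MO-Tbx5a, against 20.7% and 19.7% after MO-Ct. The lowest share was that under the label MO-Tbx5a at 48 hpf, whose interval did not reach that of its control. Such intervals hold no spread between embryo pools. Since miR-199-5p has 3 precursors in the table and miR-199-3p has 2 of them, the arm share and arm ratio of miR-199 are not those of 1 hairpin.

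The arm ratio was tested with limma over the 24 hairpins whose arms both passed the filter. Between stages, 5 hairpins, or 20.8%, were called: miR-133a, miR-133b, miR-181a, miR-19a and miR-210. The miR-19a call uses miR-19a-3p values at 48 hpf that are not whole multiples of 1 read. The study took its reported change of miR-19a-3p at 48 hpf from earlier published data. Whether the deposited values have that source too is not stated, so the 2 arms may not be from the same experiment. Neither miR-140 (log2 difference -0.23, standard error 0.24, adjusted p = 0.427) nor miR-199 (log2 difference -0.11, standard error 0.20, adjusted p = 0.603) was among them. Between morpholinos at 24 hpf limma called 0 of 24 hairpins (0.0%), with 2 at an unadjusted p under 0.05, and between stages in that difference also 0 (0.0%), with 5. At 24 hpf the log2 arm ratio of 5p to 3p differed by 0.36 for miR-140, MO-Tbx5a minus MO-Ct (standard error 0.21, adjusted p = 0.633 from limma), and by 0.04 for miR-199 (standard error 0.15, adjusted p = 0.903 from limma). Over the 6 libraries the log2 arm ratio of miR-199 spanned 0.35, the narrowest of the 24 hairpins, where the median span was 0.95. That of miR-140 spanned 0.69. On average 2 of the 24 hairpins leaned further to 3p than miR-140, namely miR-19a and miR-19b, and miR-182 leaned furthest to 5p.

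**Figure D4:**
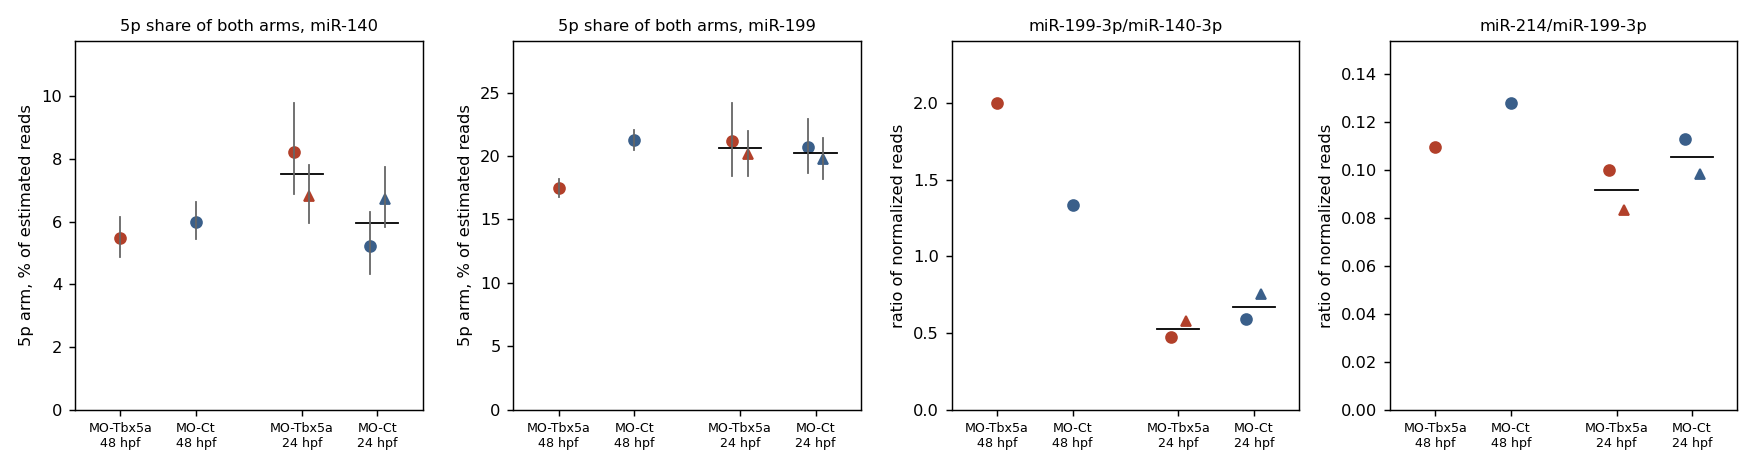
From left to right, the 5p share of estimated reads on both arms of miR-140 and of miR-199 (percent, with 95% Wilson intervals), and the ratios of normalized reads of miR-199-3p to miR-140-3p and of miR-214 to miR-199-3p, per library (red, MO-Tbx5a; blue, MO-Ct; circle, batch 1 or only library; triangle, batch 2; line, mean of the batches). The ratio of miR-199-3p to miR-140-3p is above 1 only in the libraries at 48 hpf, while the 5p shares stay between 5.23% and 8.22% and between 17.5% and 21.3%.

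The comparison of MO-Tbx5a with MO-Ct addressed whether loss of Tbx5a alters miRNAs. At 24 hpf limma without a batch term called 0 of the 5 members and 16 of 210 miRNAs in all (7.62%). With the batch number as a block it called 1 of the 5, miR-199-3p, and 39 of 210 miRNAs in all. The count of 16 was 5 without MO-Tbx5a batch 1 and 0 without either MO-Ct batch. At an unadjusted p under 0.05 there was 1 member, miR-214, beside 21.0% of all miRNAs. Of the 5 members 4 had no overlap between the morpholinos, as had 52.4% of all miRNAs. After MO-Tbx5a 1 of these members lay higher, beside 22.9% of all, and 3 lay lower, beside 29.5%. An exact permutation test of 2 libraries against 2 cannot give a p below 0.333.

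miR-214 averaged 115 ± 3.56 normalized reads after MO-Tbx5a, against 167 ± 1.36 after MO-Ct (SD, n = 2 libraries each at 24 hpf). The log2 difference was -0.53 (standard error 0.26, limma unadjusted p = 0.0430 and adjusted p = 0.210). Both MO-Tbx5a batches lay under both MO-Ct batches, as for 29.5% of all miRNAs. The batches of each group were close, but rested on 60 and 131 estimated reads after MO-Tbx5a and on 125 and 183 after MO-Ct. With so few reads and 2 batches, this closeness does not measure the spread between pools. Relative to miR-140-3p in the same library, the batches of miR-214 stood at 0.0476 and 0.0482 after MO-Tbx5a, against 0.0669 and 0.0741 after MO-Ct.

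Both arms of miR-199 lay in the same order. miR-199-3p averaged 1266 ± 202 normalized reads after MO-Tbx5a, against 1589.7 ± 167 after MO-Ct (SD, n = 2 libraries each), with a log2 difference of -0.33 (standard error 0.17, adjusted p = 0.249 from limma). Both its MO-Tbx5a batches lay under both MO-Ct batches, as for 29.5% of all miRNAs. With the batch number as a block it was called (limma adjusted p = 0.0236), among 39 of 210 miRNAs. That fit pairs the batches by number, and no fit with the other pairing was run. The study's methods speak of independent embryo batches at this stage without saying whether a numbered batch was split between the morpholinos. miR-199-5p averaged 329 ± 37.9 after MO-Tbx5a, against 402 ± 25.2 after MO-Ct, with a log2 difference of -0.29 (standard error 0.21, adjusted p = 0.458 from limma).

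Of the miR-140 arms, miR-140-3p averaged 2397 ± 52.0 normalized reads after MO-Tbx5a, against 2377 ± 151 after MO-Ct, and the groups overlapped. Its log2 difference of 0.01 (standard error 0.16) had a 95% interval of -0.31 to 0.33 and an adjusted p of 0.968 from limma. miR-140-5p averaged 195 ± 23.5 after MO-Tbx5a, against 150.3 ± 18.8 after MO-Ct. Its log2 difference was 0.37 (standard error 0.25, limma adjusted p = 0.429).

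At 48 hpf each morpholino had 1 library, so the ratios there have no replicate check. A ratio past 2-fold was found for 56 of 219 miRNAs (25.6%) with at least 10 normalized reads in 1 of the libraries, and for 0 of the 5 members. As labelled, MO-Tbx5a over MO-Ct, the log2 ratio was 0.46 for miR-199-3p, 0.11 for miR-199-5p and 0.23 for miR-214. It was -0.12 for miR-140-3p and -0.25 for miR-140-5p. The batches of one group at 24 hpf differed on the log2 scale by up to 0.33 for miR-199-3p, 0.23 for miR-199-5p, 0.06 for miR-214, 0.13 for miR-140-3p and 0.25 for miR-140-5p. The ratio at 48 hpf was larger in size than both batch gaps for miR-199-3p and miR-214. That of miR-140-5p, in the opposite direction, passed them by a narrow margin (-0.255 against gaps of 0.244 and 0.252). How many of all miRNAs pass their own gaps was not counted, so this does not set the members apart. The small gaps of miR-214 rest on 60 to 183 estimated reads in single libraries, too few for a gap to measure spread. The libraries at 48 hpf also differed in tissue-linked miRNAs, in both directions. The 3 of nervous system, all detected, summed to 46879.6 normalized reads under the label MO-Tbx5a, against 11639 under the label MO-Ct. They summed to 2049 to 3153 over the libraries at 24 hpf. Under the label MO-Tbx5a, those of red blood cells (442.26 against 170.67) and liver (37.22 against 13.06) were also higher. Those of muscle (10380.5 against 12888.4), epidermis (26638.4 against 37818.5) and the early embryo (54681.6 against 180147) were lower. None of these miRNAs was at 0. Their part in the ratios was not tested.

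The difference between the morpholinos was itself compared between the stages in a limma fit of 4 group means, which takes the lone libraries at 48 hpf to vary like those at 24 hpf. It was called for 1 of the 5 members and for 71 of all miRNAs (33.2%), 34 of them (15.9%) upwards. The member was miR-199-3p, whose log2 ratio of MO-Tbx5a to MO-Ct was 0.79 higher at 48 hpf than at 24 hpf (standard error 0.29, adjusted p = 0.0247 from limma). The corresponding values were 0.77 for miR-214 (adjusted p = 0.128), 0.40 for miR-199-5p (adjusted p = 0.378), -0.13 for miR-140-3p (adjusted p = 0.741) and -0.63 for miR-140-5p (adjusted p = 0.266). The call of miR-199-3p was lost with library totals, with totals without miR-430 and without the variance trend, and its sign turned with the names of the libraries at 48 hpf exchanged.

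**Figure D5:**
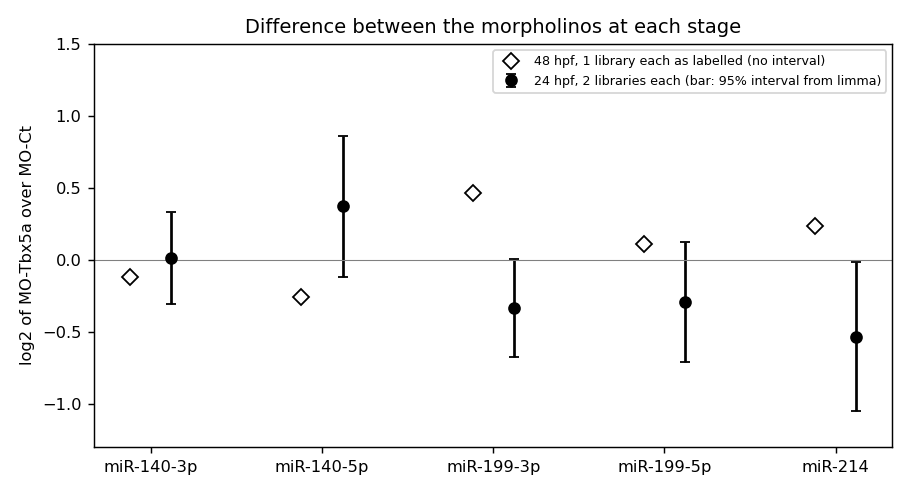
Log2 of MO-Tbx5a over MO-Ct (vertical axis) for each of the 5 miRNAs at 48 hpf (open diamonds, 1 library each as labelled, no interval) and at 24 hpf (filled circles, 2 libraries each, with the unadjusted 95% interval of limma). As labelled, the trio lies below 0 at 24 hpf and above 0 at 48 hpf, and miR-140-5p the other way round.

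Other miRNAs linked to cartilage, pharyngeal arches or fins were taken from a list. The list comprised miR-22, miR-23, miR-24, miR-27, miR-29, miR-92, miR-143, miR-145, miR-196 and miR-455 beside the members and gave 27 miRNAs in the table, 26 of them tested. Apart from the 5 members, 21 were tested between stages. Of these 2 rose, 9 fell and 10 were not called at 48 hpf against 24 hpf, with a median log2 difference of -0.45, against -0.29 over all miRNAs. The share called, 11 of 21, was close to the 52.3% over all miRNAs tested (18.7% higher and 33.6% lower), so the count does not set the list apart. The 2 that rose were the pair miR-143 and miR-145, known from smooth muscle and other mesenchyme. miR-143 had 13735 and 9122 normalized reads at 48 hpf (MO-Tbx5a and MO-Ct as labelled) and 1523.5 to 2059.8 at 24 hpf, with a log2 difference of 2.65 (standard error 0.23, adjusted p = 0.000324 from limma). miR-145 was low, at 127 and 59.2 at 48 hpf in the same order and 7.49 to 17.02 at 24 hpf, with a log2 difference of 2.56 (standard error 0.48, adjusted p = 0.00513 from limma).

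Those that fell between the stages were miR-196a, miR-196b, miR-196c, miR-196d, miR-23b, miR-24, miR-27d, miR-92a and miR-92b. The miR-196 genes lie within the Hox clusters and bear on the placing of the pectoral fin in zebrafish. Their log2 differences ran from -3.32 for miR-196b to -1.78 for miR-196d and stayed below 0 under all 4 scalings, though that of miR-196d was not called with library totals. The differences of miR-23b, miR-24, miR-27d, miR-92a and miR-92b turned above 0 with library totals. Of the 21 miRNAs 15 were called higher and 3 lower with library totals, and 2 higher and 5 lower with each of the other 2 alternative scalings. miR-143 and miR-145 were called higher under all 4. The cartilage-linked miR-455a and miR-455b were not called on the deposited scale, with log2 differences of 0.02 and -0.08, and were called higher with library totals, at 1.40 and 1.29. Between morpholinos at 24 hpf 1 of the 21 was called, miR-92b, lower after MO-Tbx5a like 4.29% of all miRNAs, with a log2 difference of -0.64 (standard error 0.16, limma adjusted p = 0.00182). With library totals, and without either MO-Ct batch, no miRNA was called at this stage.

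Over the 6 libraries, the miRNA most like miR-199-3p in log2 level was its own 5p arm (Pearson's r = 0.991), followed by miR-216b, miR-125c, miR-145 and miR-214 (r = 0.985 to 0.990). The nearest to miR-214 was miR-125c (r = 0.995). Libraries of the same stage lie together, so these values follow the stages, and 23 of 213 miRNAs had an r over 0.95 with miR-199-3p. With the deposited size factors no miRNA had an r over 0.95 with either arm of miR-140. The most like miR-140-3p was miR-460-3p (r = 0.797), followed by miR-26b, miR-193a, miR-133a-3p and miR-216a (r = 0.699 to 0.725), and its own 5p arm was at r = -0.193. The most like miR-140-5p was miR-735 (r = 0.872), followed by miR-27e, miR-733, miR-135b and miR-34c (r = 0.802 to 0.862). These likenesses depend on the scaling: with library totals 69 miRNAs had an r over 0.95 with miR-140-3p, miR-199-5p among them (r = 0.995), and 23 with miR-140-5p, and the arms of miR-140 were at r = 0.948.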

How the data were processed

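Per the labels, libraries were selected by size for small RNA. The submitters' notes name CASAVA 1.8, and the authors cut adapters with Cutadapt, mapped with miRExpress to miRBase hairpins of zebrafish and divided the summed reads by the authors' DESeq size factors. This normalized signal is what was deposited. Divided by 1 step per library, taken as 1 read, all values above 0 except 2 (miR-19a-3p at 48 hpf) came within 0.1 reads of a whole number. That the step is 1 read is an inference from the low values, too few of which were low enough for a separate check, and raw counts were not used here. Estimated reads, depths and Wilson intervals rest on it, and the depths exceed the miRNA reads in the study's supplement for every library. Rows were averaged by mature name. limma 3.58.1 in R 4.3.3 (two-sided, variance trend, Benjamini-Hochberg adjustment over all miRNAs or hairpins tested) was fitted to log2 of the values plus 2, after a filter of at least 10 in at least 2 libraries, since a test for counts needs raw reads. It was also run on simulated reads with the same dispersion for every miRNA and no batch effect. That run does not check the fits for the unequal spread of real libraries. At 48 hpf ratios past 2-fold were counted. Exact permutation tests were two-sided and used scipy 1.17.1.

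The labels number the libraries at 24 hpf, and the methods give independent embryo batches without saying whether a numbered batch was split between the morpholinos. The main fit had no block. Its p-values set a difference against a spread between embryo pools that limma shares across miRNAs of similar level. For single miRNAs at 24 hpf this shared spread outweighed the miRNA's own. The methods and the labels differ on the library kit and RNA input. The members, the list of cartilage, arch and fin miRNAs and the tests were chosen with earlier results of these data known. The miRNAs named are the members, the list, hairpins called or with the most extreme arm ratios, and the 5 most like each arm of miR-140. Those most like miR-199-3p and miR-214 were added after the values were seen. Alternatives were other scalings, pseudocounts, filters, fits and left-out libraries. Mature sequences and shared seeds were not analysed here.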

Additional observations from a re-analysis of the deposited data

Results flagged for a closer look

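The log2 ratio of MO-Tbx5a to MO-Ct for miR-199-3p differed between the stages by 0.79 (adjusted p = 0.0247 from limma), being 0.46 at 48 hpf as labelled and -0.33 at 24 hpf. With the names of the libraries at 48 hpf exchanged this difference was -0.13 (adjusted p = 0.835), and it was called under 5 of the 9 alternatives.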

How the results depend on the processing

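miR-199-3p, miR-199-5p and miR-214 stayed called higher at 48 hpf under all 17 alternatives for the stage comparison, with adjusted p up to 0.0115. For dre-miR-140-3p the stage difference was 1.52 with library totals, 0.61 with totals without miR-430 and 0.44 with median-ratio size factors, all called. For dre-miR-140-5p it was 1.28 with library totals, which was called, and 0.37, 0.20 and, within MO-Ct, 0.21, which were not, and without 1 library it ran from -0.42 to 0.21. At 24 hpf the number of miRNAs called, 16, became 0 with library totals, 2 with totals without miR-430, 6 with median-ratio size factors and 1 without a variance trend, and ran from 0 to 16 without 1 library. Where limma called 0, an unadjusted p under 0.05 was found for 38 miRNAs with library totals, for 25 without MO-Ct batch 1 and for 24 without MO-Ct batch 2. There dre-miR-140-3p was at -0.025 with library totals and ran from -0.052 to 0.078 without 1 library.

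With the replicate block, the batch number as a term, 39 of 210 miRNAs were called at 24 hpf (12 higher, 27 lower). Among them was miR-199-3p (-0.33, adjusted p = 0.0236 from limma). The batch differences of the morpholinos correlated at r = 0.279 over 210 miRNAs, and with only 2 numbers the pairing cannot be settled from the data. Of the other members and hairpins the block changed no call.

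The number called in the difference between stages of the morpholino effect, 71, was 47 with library totals and 30 without a variance trend. miR-199-3p was there at 0.99 with library totals, 0.60 with totals without miR-430 and 0.79 without a trend, none called, and at -0.13 with the names at 48 hpf exchanged. dre-miR-140-3p turned to 0.061 with library totals, to 0.060 with median-ratio size factors and to 0.11 with names exchanged. The ratios at 48 hpf with library totals were 0.037 for miR-140-3p, 0.27 for miR-199-5p and 0.39 for miR-214, the last 0.28 with median-ratio size factors. With names exchanged they turn by construction, to 0.12 for miR-140-3p, 0.25 for miR-140-5p, -0.46 for miR-199-3p, -0.11 for miR-199-5p and -0.23 for miR-214.

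Among arm ratios, the 5 stage calls became 9 within MO-Tbx5a and 13 with names exchanged, and ran from 4 to 9 without 1 library, with 9 without MO-Ct batch 2 at 24 hpf and without the library labelled MO-Ct at 48 hpf. Within MO-Ct the stage difference was 0.015 for miR-140 and 0.088 for miR-199, and without 1 library it ran from -0.48 to 0.015 and from -0.31 to 0.088. At 24 hpf miR-199 ran from -0.0046 to 0.087 without 1 library. In the difference between stages 2 hairpins were called with a filter of 10 in every library, and miR-199 turned to 0.31 with names exchanged. The causes were not tested. The design of 1 or 2 libraries a group, the unknown raw counts and the names at 48 hpf limit every comparison between morpholinos.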
